A study of Mus musculus with 11 samples.

Results

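Trp63, Itga6, Itgb4, Pdpn, Ly6a and Lifr are genes associated with immature, junctional and progenitor cells of the thymic medulla. They were taken by symbol and are 6 of the 56691 genes in a count table of mouse thymic epithelium. The table holds 11 bulk RNA sequencing libraries of EpCAM-positive, CD45-negative thymic cells from NOD mice aged 4 to 8 weeks, a strain prone to autoimmune diabetes. The animals carried the wild-type allele of Aire on both chromosomes (WT/WT, n = 3), the R249C allele on a single chromosome (WT/R249C, n = 5) or R249C on both (R249C/R249C, n = 3). The variant replaces an amino acid of the SAND domain of Aire, a regulator that drives tissue-restricted genes in mature medullary cells, and the study asked how it affects thymic epithelial expression. The labels give 2 batches. Batch A holds WT/WT replicate 1, WT/R249C replicates 1, 2 and 3 and R249C/R249C replicates 1 to 3. Batch B consists of replicates 2 and 3 of WT/WT and replicates 4 and 5 of WT/R249C. For WT/R249C replicates 4 and 5 the genotype field of the labels reads R249C/R249C while the title reads WT/R249C. They were grouped by title, so every WT/R249C value from batch B rests on 2 libraries whose labels contradict each other. The labels do not tell how many mice went into a library, so p-values measure the spread between libraries.

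Medullary thymic epithelial cells arise from progenitors and pass through immature stages before they turn on Aire and present self-antigens. p63, the product of Trp63, is the transcription factor that maintains stem and basal cells of stratified epithelia, including the thymus. Integrin alpha 6 (Itga6) and integrin beta 4 (Itgb4) form the laminin receptor that anchors basal epithelial cells through hemidesmosomes. Podoplanin (Pdpn) is a membrane mucin found on medullary cells near the cortex and also on fibroblasts and lymphatic vessels. Ly6a encodes Sca-1, a small GPI-anchored surface protein of stem and progenitor cells that is also made by endothelium. Lifr encodes the receptor subunit for leukemia inhibitory factor, which signals together with gp130.

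Library totals ran from 60560348 to 182319976 counts, and values are CPM, a count divided by the total of its library and multiplied by the same constant in all. Epcam lay between 355 and 521 CPM in all libraries, and Aire between 174 CPM in WT/R249C replicate 2 and 858 CPM in R249C/R249C replicate 3. Markers of cells outside the epithelium were present in the sort. The summed fibroblast list (8 genes) lay between 861 and 2406 CPM, with Dcn alone at 671 to 1673 CPM. In WT/R249C replicate 3, where the sum was lowest, Lum, Pdgfra and Pdgfrb were at 0 and Postn at 0.479 CPM. Col3a1 stood at 151 CPM there, within the 54.0 to 500 CPM of the other libraries. The summed B lineage list (6 genes) lay between 1394 and 2989 CPM in WT/WT, between 92.9 and 481 in WT/R249C and between 248.7 and 531 in R249C/R249C. WT/R249C replicate 3 was the shallowest library and had the fewest genes with a count, 22101 against up to 31180 in the others. In bulk RNA, fewer cells of a type and less RNA per cell cannot be told apart.

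All 6 genes were detected in every library, the lowest value being 84.4 CPM for Pdpn in WT/WT replicate 3. Between genotypes or batches none of them passed the test across all genes, and in none of the 4 comparisons (3 between genotypes, 1 between batches) did the libraries of the compared groups separate. Ordered by level, the 12 differences between neighbouring genotype means were all smaller than the larger SD of the pair. Only neighbouring means were compared in this way. For Itga6 the outer means, 203 ± 29.2 in WT/R249C and 242 ± 35.2 CPM in R249C/R249C, lay further apart than either SD. WT/R249C replicate 2 had the highest level of 3 genes (Itgb4, Pdpn and Ly6a), WT/WT replicate 1 of 2 genes (Trp63 and Lifr), and R249C/R249C replicate 2 that of Itga6. WT/WT replicate 3 had the lowest level of 3 genes (Trp63, Itga6 and Pdpn). The plot of the members by library shows this spread.

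**Figure D1:**
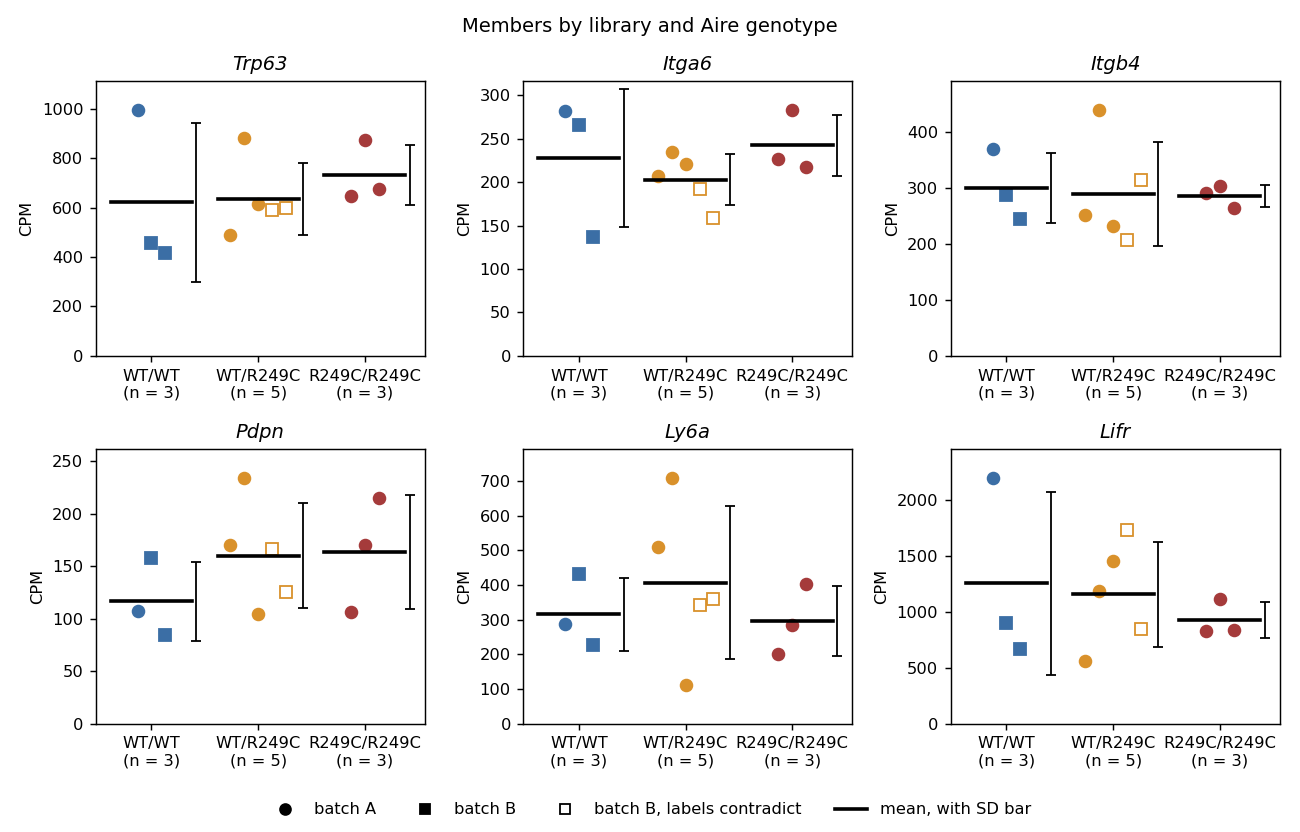
CPM of each gene (y axis, linear from 0) in the 11 libraries by Aire genotype (x axis). Points are libraries, circles batch A and squares batch B, open squares the 2 libraries with contradicting labels, lines the means and bars the SD. Libraries of all 3 genotypes overlap for every gene, and WT/WT replicate 1 stands highest for Trp63 (993 CPM) and Lifr (2191 CPM).

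Trp63 (ENSMUSG00000022510.15), the basal and progenitor transcription factor, measured 993, 456 and 417 CPM in WT/WT replicates 1 to 3. In WT/R249C replicates 1 to 5 it stood at 490, 882, 614, 589 and 599 CPM. R249C/R249C replicates 1 to 3 gave 647, 873 and 677 CPM. The WT/WT libraries thus included both the highest value of the series, from batch A, and the 2 lowest, from batch B, and the 3 genotypes overlapped. The means ordered as WT/WT 622 ± 322 (SD, n = 3), WT/R249C 635 ± 146 (n = 5) and R249C/R249C 732 ± 123 CPM (n = 3). Across all 11 libraries the coefficient of variation (SD over mean) was 28.3%, and the median over the 2124 genes with a mean of at least 100 CPM was 23.1%.

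Itga6 (ENSMUSG00000027111.17), the alpha chain of the hemidesmosomal laminin receptor, was found at 282, 266 and 137 CPM in WT/WT. In WT/R249C its levels were 208, 235, 221, 193 and 159 CPM. In R249C/R249C they were 227, 283 and 217 CPM. WT/WT replicate 3 and WT/R249C replicate 5, both of batch B, were the lowest, and the other 9 libraries lay between 193 and 283 CPM. The means were 203 ± 29.2 in WT/R249C, 228 ± 79.6 in WT/WT and 242 ± 35.2 CPM in R249C/R249C, in that order. It varied least of the 6, with a coefficient of variation of 21.1%.

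Itgb4 (ENSMUSG00000020758.16), the beta chain that pairs with Itga6, had 369, 287 and 245 CPM in WT/WT. The WT/R249C libraries had 252, 439, 232, 208 and 315 CPM, and the R249C/R249C libraries 291, 303 and 265 CPM. WT/R249C holds both the highest library (replicate 2) and the lowest (replicate 4), and the R249C/R249C values fall between them. The 3 means, 287 ± 19.5 in R249C/R249C, 289 ± 92.7 in WT/R249C and 301 ± 63.1 CPM in WT/WT, differed by far less than the SD of WT/WT or WT/R249C.

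Pdpn (ENSMUSG00000028583.15), the membrane mucin, was measured at 107, 158 and 84.4 CPM in WT/WT. Its levels in WT/R249C were 171, 234, 105, 167 and 125 CPM, and in R249C/R249C they were 107, 170 and 215 CPM. WT/WT replicate 3 was the lowest library and WT/R249C replicate 2 the highest, and 1 library of each mutant genotype fell just below WT/WT replicate 1. The means were 117 ± 37.6 in WT/WT, 160 ± 49.6 in WT/R249C and 164 ± 54.3 CPM in R249C/R249C, with a coefficient of variation of 32.1% over all libraries.

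Ly6a (ENSMUSG00000075602.11), which encodes Sca-1, stood at 287, 431 and 227 CPM in WT/WT. In WT/R249C it ran from 113 CPM in replicate 3 to 707 in replicate 2, with 510, 342 and 360 CPM in replicates 1, 4 and 5. R249C/R249C gave 202, 284 and 402 CPM. The whole range of the series was therefore found inside WT/R249C, a 6.25-fold span between 2 libraries of the same genotype and batch. The means were 296 ± 100.5 in R249C/R249C, 315 ± 105 in WT/WT and 407 ± 220 CPM in WT/R249C. Its coefficient of variation, 46.2%, exceeded that of 94.8% of the genes with a mean of at least 100 CPM.

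Lifr (ENSMUSG00000054263.13), the receptor subunit for leukemia inhibitory factor, reached 2191 CPM in WT/WT replicate 1 against 900 and 671 CPM in WT/WT replicates 2 and 3. The WT/R249C libraries had 557, 1185, 1452, 1732 and 847 CPM, and R249C/R249C had 831, 1113 and 839 CPM. The R249C/R249C libraries lay within 1.34-fold of each other, while WT/WT spanned 3.27-fold and WT/R249C 3.11-fold. The means were 928 ± 160 in R249C/R249C, 1155 ± 468 in WT/R249C and 1254 ± 820 CPM in WT/WT. The coefficient of variation of 44.1% exceeded that of 93.6% of the genes with a mean of at least 100 CPM.

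R249C/R249C was compared with WT/WT to ask how these genes stand when both Aire copies carry the variant. Trp63 had a log2 fold change of -0.02 (SE 0.33, 95% interval -0.76 to 0.73), where 1 is a doubling and negative values are lower in R249C/R249C. The laminin receptor chains stood at -0.12 for Itga6 (interval -0.77 to 0.52) and -0.24 for Itgb4 (-0.96 to 0.48). Pdpn stood at 0.45 (-0.60 to 1.50), Ly6a at -0.19 (-1.78 to 1.40) and Lifr at -0.57 (-1.77 to 0.63). No interval excluded 0, so changes as large as their ends could not be told from none at this spread. Of the 6 genes, 0 passed by edgeR's quasi-likelihood test (adjusted p = 1 for each), where 0% of the 26980 genes tested passed. At an unadjusted p under 0.05 the count was again 0 of 6, where 3.21% of all genes lay. The CPM of the groups did not overlap for 0 of 6 members and for 8.1% of all genes tested. The median of the members was -0.16, and 1 of 6 was positive, against a median of -0.02 and 49.0% positive over all genes.

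The direction of Trp63, Ly6a, Itga6 and Lifr in that comparison was not stable. They kept their sign in 12, 13, 17 and 18 of 20 alternatives, while Itgb4 and Pdpn kept theirs in all 20. With limma voom Trp63 and Lifr stood at 0.077 and 0.066. The largest turn came on leaving out WT/WT replicate 1, the sole WT/WT library of batch A. Without it the log2 fold change was 0.72 for Trp63 and 0.67 for Lifr. Within batch A, against that library alone and with the spread taken from the mutant groups, they were -0.44 and -1.24. WT/WT replicate 1 also had the lowest summed keratinocyte list of the series (7 genes, 105 CPM, against 128 to 268 CPM elsewhere) and the lowest Foxn1, the master regulator of thymic epithelium, at 58.1 CPM against 118 to 189 CPM. The part of these differences in the result was not tested.

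WT/R249C was compared with WT/WT to ask about a single variant copy. The log2 fold change was -0.02 for Trp63 (interval -0.62 to 0.58), -0.26 for Itga6 (-0.78 to 0.25) and -0.12 for Itgb4 (-0.70 to 0.45). It was 0.44 for Pdpn (-0.39 to 1.28), 0.33 for Ly6a (-0.94 to 1.60) and -0.12 for Lifr (-1.11 to 0.88). Pdpn stood at a higher mean than WT/WT in both mutant genotypes, but the comparisons share the WT/WT libraries and neither passed. Again 0 of 6 members passed by edgeR (adjusted p = 1 for each, 0% of all genes), and 0 of 6 had an unadjusted p under 0.05 (3.48% of all genes). Groups did not overlap for 0 of 6 members and 2.93% of all genes. The members' median was -0.07 with 2 of 6 positive, against 0.02 and 51.5% over all genes.

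Within the batches, WT/R249C against WT/WT pointed opposite ways for Trp63 and Lifr. In batch A all 3 WT/R249C libraries lay below the single WT/WT library for both genes, and the log2 fold changes were -0.62 for Trp63 and -1.11 for Lifr. In batch B Trp63 stood at 589 and 599 CPM in WT/R249C and at 456 and 417 CPM in WT/WT. How many of all genes separate in so small a split was not counted, so the order of these libraries is not read as a result. The fold change was 0.48. For Lifr in batch B it was 0.76, with WT/R249C replicate 5 (847 CPM) below WT/WT replicate 2 (900 CPM). A test of the difference between batches, added after these values were seen and fitted to the 8 WT/WT and WT/R249C libraries, gave 1.15 for Trp63 (interval -0.0010 to 2.30) and 1.91 for Lifr (-0.05 to 3.86). The unadjusted p was 0.0501 and 0.0540, and the edgeR adjusted p was 0.983 for both. An unadjusted p under 0.05 was found for 0 of 6 members and 3.91% of the 25519 genes fitted, and 0% of those genes passed. The median difference over all genes in that fit was -0.37, and for the other 4 members the interval reached well to both sides of 0. Batch A rests on a single WT/WT library and batch B on the libraries with contradicting labels.

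The 2 mutant genotypes were compared within batch A, on 3 libraries each. Ly6a had the largest difference in size, with a log2 fold change of -0.59 in R249C/R249C relative to WT/R249C and an interval of -2.25 to 1.06. Trp63 stood at 0.18 (-0.49 to 0.85), Itga6 at 0.17 (-0.26 to 0.60) and Itgb4 at -0.07 (-0.82 to 0.67). Pdpn stood at -0.04 (-1.02 to 0.93) and Lifr at -0.14 (-0.98 to 0.70). The interval of Itga6 was the narrowest of the 6. By edgeR 0 of 6 members passed (adjusted p = 1 for each, 0% of 23695 genes), 0 of 6 had an unadjusted p under 0.05 (1.08% of genes) and 0 of 6 separated the groups (8.85% of genes). The median was -0.06 against 0.01 over all genes tested. Without WT/R249C replicate 2, the library highest for Itgb4 and Pdpn, the direction of both turned, to 0.30 for Itgb4 and 0.28 for Pdpn.

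All 6 genes had a lower fitted level in batch B than in batch A at equal genotype, though none passed. Trp63 averaged 739 ± 180 CPM in batch A (n = 7) and 515 ± 92.5 CPM in batch B (n = 4), a log2 fold change of -0.55 (interval -1.13 to 0.04, unadjusted p = 0.0632, edgeR adjusted p = 1). Itga6 averaged 239 ± 30.8 and 188 ± 56.3 CPM (-0.39, interval -0.89 to 0.11), and Itgb4 308 ± 73.0 and 264 ± 47.2 CPM (-0.34, interval -0.90 to 0.21). The others were nearer 0 or had wider intervals, at -0.10 for Pdpn (-0.90 to 0.70), -0.18 for Ly6a (-1.41 to 1.04) and -0.36 for Lifr (-1.33 to 0.60). The members' median was -0.35, against -0.01 and 49.2% positive over all genes. By edgeR 0 of 6 passed (0% of genes), 0 of 6 had an unadjusted p under 0.05 (3.58%) and 0 of 6 separated the batches (0.537%). The size for Trp63 ran from -1.57 with a replicate block to -0.11 without WT/WT replicate 1, and was -1.25 without the contradicting libraries. Without WT/WT replicate 1 the Lifr value turned to 0.36. Without WT/R249C replicate 2 that of Pdpn turned to 0.11 and that of Ly6a to 0.15.

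**Figure D2:**
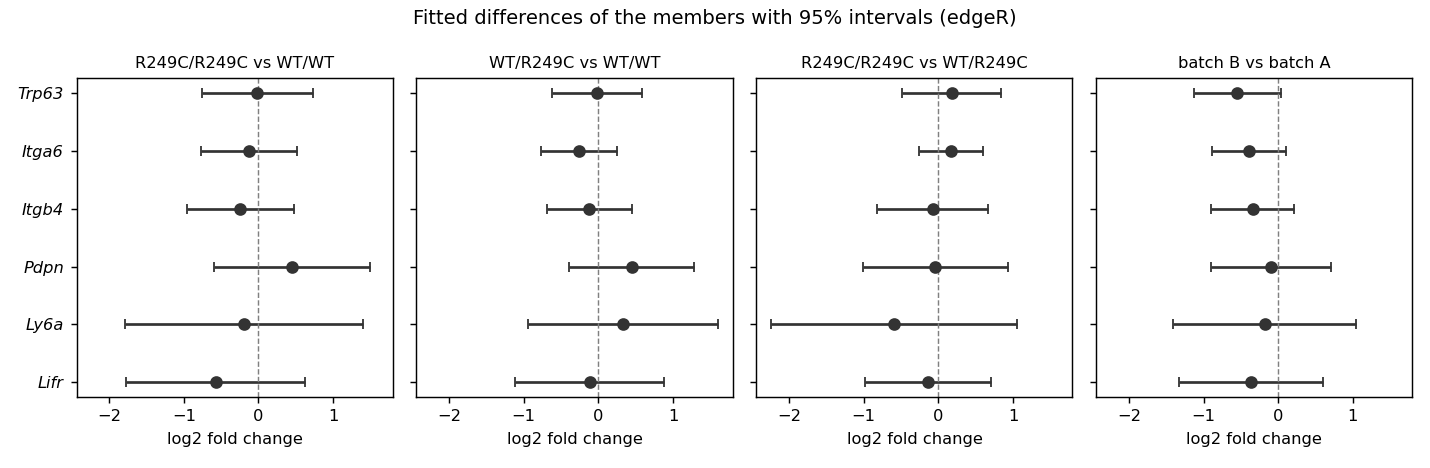
Fitted log2 fold change of each gene (x axis; rows are genes) in the 4 comparisons named above the panels. Dots are edgeR estimates and bars 95% intervals, and the dashed line marks 0. Every interval spans 0; those of Ly6a are the widest, and all 6 estimates for batch B lie below 0.

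Other tests gave the same count for the members. In the 4 comparisons in the order above, 26980, 26980, 23695 and 26980 genes passed the filter on low counts. Of these DESeq2 called 408, 276, 33 and 183, and limma voom called 0 in each. Among those calls 0 were members. At an unadjusted p under 0.05, DESeq2 listed 0 of 6 members in each comparison, beside 1946, 2182, 581 and 2164 of those genes in all. With so small a share of all genes listed, 0 of 6 does not set the members apart. Limma voom listed 1 of 6 between batches, Itgb4, beside 1522 of 26980 genes in all, and 0 of 6 in the other comparisons.

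How the members varied together was described by pairs. Pearson's r was computed on log2(CPM + 1) for the 15 pairs over 11 libraries. It was positive for 13 pairs, had an unadjusted permutation p under 0.05 for 4, and passed Benjamini-Hochberg adjustment over the 15 pairs for 0. The closest pair was Pdpn and Ly6a, at r = 0.77 (permutation p = 0.00429, adjusted p = 0.0643) and Spearman's rho = 0.81 (permutation p = 0.00428, adjusted p = 0.0642). WT/R249C replicate 2 was highest for both genes, and WT/R249C replicate 3 was lowest for Ly6a and among the lowest for Pdpn. Without WT/R249C replicate 3 and WT/WT replicate 3, the libraries farthest from the median of Pdpn, r was 0.77. Within the 7 libraries of batch A it was 0.83. With TMM-scaled CPM (scaling that offsets differences in composition between libraries) r was 0.80 and the adjusted p = 0.0373, so this pair lies on the edge of the threshold.

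The other 3 pairs with an unadjusted p under 0.05 all held Trp63, and none passed adjustment. Against Itgb4 r was 0.66 (permutation p = 0.0279, adjusted p = 0.148; rho = 0.66, permutation p = 0.0299, adjusted p = 0.181), and within batch A it was 0.79. Without WT/WT replicates 1 and 3, the libraries farthest from the median of Trp63, it was 0.55. Against Itga6 r was 0.62 (permutation p = 0.0395, adjusted p = 0.148; rho = 0.65, permutation p = 0.0362, adjusted p = 0.181) and 0.86 within batch A. Against Lifr r was 0.64 (permutation p = 0.0339, adjusted p = 0.148) and rho = 0.52 (permutation p = 0.108, adjusted p = 0.323), with 0.77 within batch A. Without those 2 WT/WT libraries the values fell to 0.27 for Itga6 and 0.36 for Lifr, so both relations rest on them. Itga6 and Itgb4, whose products form 1 receptor, had r = 0.41 (permutation p = 0.206, adjusted p = 0.441; rho = 0.55, permutation p = 0.0877, adjusted p = 0.323), with 0.53 in batch A and 0.62 without WT/R249C replicate 5 and WT/WT replicate 3. Lifr had r = -0.04 with Pdpn (permutation p = 0.905, adjusted p = 0.905; rho = 0.01, permutation p = 0.990) and r = -0.22 with Ly6a (permutation p = 0.512, adjusted p = 0.698; rho = -0.12, permutation p = 0.736). With TMM scaling the value for Pdpn and Lifr was 0.0030.

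**Figure D3:**
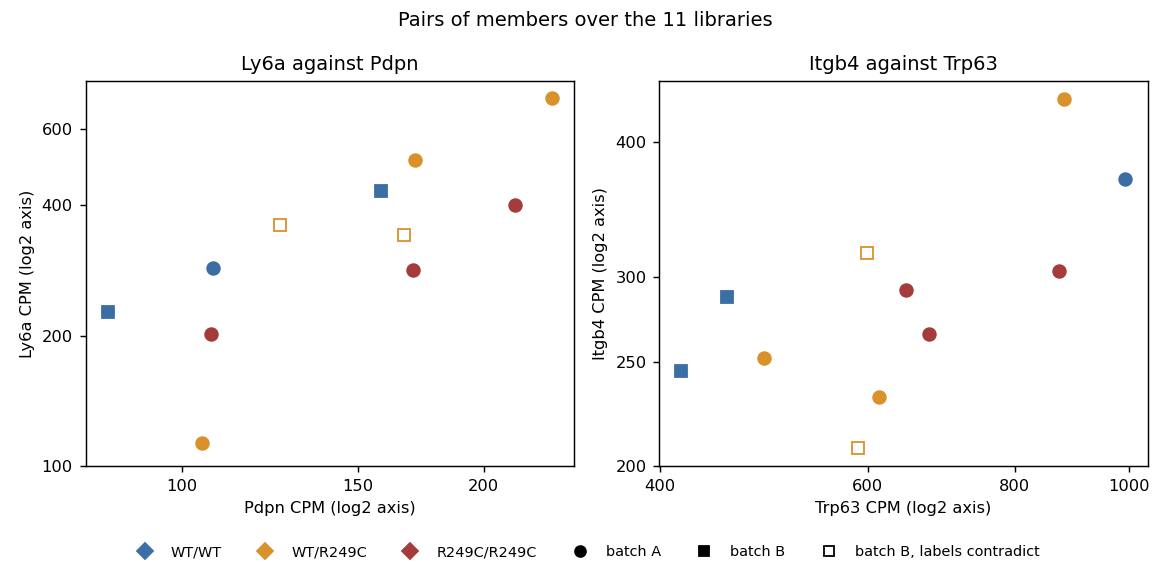
Ly6a against Pdpn (left) and Itgb4 against Trp63 (right), CPM on log2 axes, 1 point a library. Colours give the genotype, circles batch A, squares batch B and open squares the libraries with contradicting labels. WT/R249C replicate 2 is highest for Pdpn, Ly6a and Itgb4 (234, 707 and 439 CPM); r is 0.77 on the left and 0.66 on the right.

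The members were also set against 11 lists of cell type markers, each summarised as its mean log2(CPM + 1), in 66 relations added after the data had been seen. An unadjusted permutation p under 0.05 was reached by 7 relations, and 0 passed adjustment over the 66. Lifr ran opposite to the keratinocyte list of terminally differentiated epithelium (Krt1, Krt10, Ivl, Lor, Sbsn, Krtdap and Dsg1a), at r = -0.83 (permutation p = 0.00166, adjusted p = 0.0851) and rho = -0.87 (permutation p = 0.00088, adjusted p = 0.0581). It was -0.84 without WT/WT replicate 1 and WT/R249C replicate 4 and -0.86 within batch A. Trp63 ran the same way, at r = -0.75 (permutation p = 0.00903, adjusted p = 0.199; rho = -0.61, permutation p = 0.0519, adjusted p = 0.527), -0.57 without WT/WT replicates 1 and 3 and -0.71 in batch A. The summed keratinocyte list lay between 105 and 267 CPM in WT/WT, 128 and 214 in WT/R249C, and 157 and 268 in R249C/R249C. The mean used for r weights each gene equally, yet Ivl never exceeded 5.41 CPM, Krt1 12.5 CPM and Lor 15.2 CPM.

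Itgb4 ran opposite to the mature medullary list (Aire, Cd80, Cd86, Cd40, Fezf2, H2-Aa, H2-Ab1 and Tnfrsf11a), which marks the cells that present self-antigens. Its r was -0.81 (permutation p = 0.00258, adjusted p = 0.0851; rho = -0.62, permutation p = 0.0479, adjusted p = 0.527), -0.63 without WT/R249C replicates 2 and 4 and -0.79 within batch A. Trp63 gave -0.68 against the same list (permutation p = 0.0212, adjusted p = 0.296; rho = -0.43, permutation p = 0.194, adjusted p = 0.748), -0.59 without WT/WT replicates 1 and 3 and -0.76 in batch A. All 6 members had a negative r with it, from -0.32 for Pdpn to -0.81 for Itgb4. The summed list ran from 7486 CPM in WT/R249C replicate 2, the library highest for 3 members, to 10891 CPM in R249C/R249C replicate 3. Most of that sum is H2-Ab1, at 5427 to 7109 CPM. The mean used for r instead weights each gene equally, and Cd86 never exceeded 12.2 CPM. Itga6 ran opposite to the general epithelial list (Epcam, Krt8, Krt18 and Cdh1) at r = -0.68 (permutation p = 0.0224, adjusted p = 0.296; rho = -0.71, permutation p = 0.0186, adjusted p = 0.527), -0.80 without WT/R249C replicate 5 and WT/WT replicate 3 and -0.67 in batch A.

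Ly6a and Pdpn are also made outside the epithelium, so markers of those cells are given beside them. The endothelial list (7 genes) summed to between 108 and 284 CPM in WT/WT, 140 and 640 in WT/R249C and 114 and 394 in R249C/R249C. Pecam1, the defining marker, was above 0 in all 11 libraries, at 12.6 to 110.5 CPM, and was highest in WT/R249C replicate 2, where Ly6a was highest too. So were Cdh5, Kdr, Plvap and Tie1. Tek was highest in WT/R249C replicate 3, at 30.3 CPM, where Ly6a was lowest. Emcn was highest in R249C/R249C replicate 2, at 15.3 CPM. Ly6a had r = 0.64 with the list (permutation p = 0.0360, adjusted p = 0.340; rho = 0.44, permutation p = 0.181, adjusted p = 0.748) and 0.62 in batch A, but -0.05 without WT/R249C replicates 2 and 3, so the relation rests on those libraries. Itgb4 had r = 0.65 (permutation p = 0.0319, adjusted p = 0.340; rho = 0.60, permutation p = 0.0553, adjusted p = 0.527), 0.70 in batch A and 0.47 without WT/R249C replicates 2 and 4. The lymphatic list (Lyve1, Prox1 and Flt4) summed to between 0 and 18.8 CPM, with Lyve1 at 0 in 6 of 11 libraries, against 84.4 to 234 CPM for Pdpn itself. With the fibroblast list, which summed to between 1444 and 2178 CPM in WT/WT, 861 and 2023 in WT/R249C and 1245 and 2406 in R249C/R249C, Pdpn had r = 0.26 (permutation p = 0.457, adjusted p = 0.784; rho = 0.21, permutation p = 0.539, adjusted p = 0.912). It was 0.53 in batch A and 0.28 without WT/R249C replicate 3 and WT/WT replicate 3. Ly6a had r = 0.42 with that list (permutation p = 0.193, adjusted p = 0.763; rho = 0.11, permutation p = 0.754, adjusted p = 0.957), 0.52 in batch A and -0.21 without WT/R249C replicates 2 and 3. With all values centred on genotype and batch, r with the fibroblast list was 0.72 for Pdpn and 0.83 for Ly6a, given as a description. Centred in the same way it was 0.63 for Itgb4, 0.57 for Trp63, 0.37 for Itga6 and -0.08 for Lifr. The rise on centring was therefore not particular to Pdpn and Ly6a. The part of endothelial and fibroblast RNA in the levels of Ly6a and Pdpn was not tested.

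**Figure D4:**
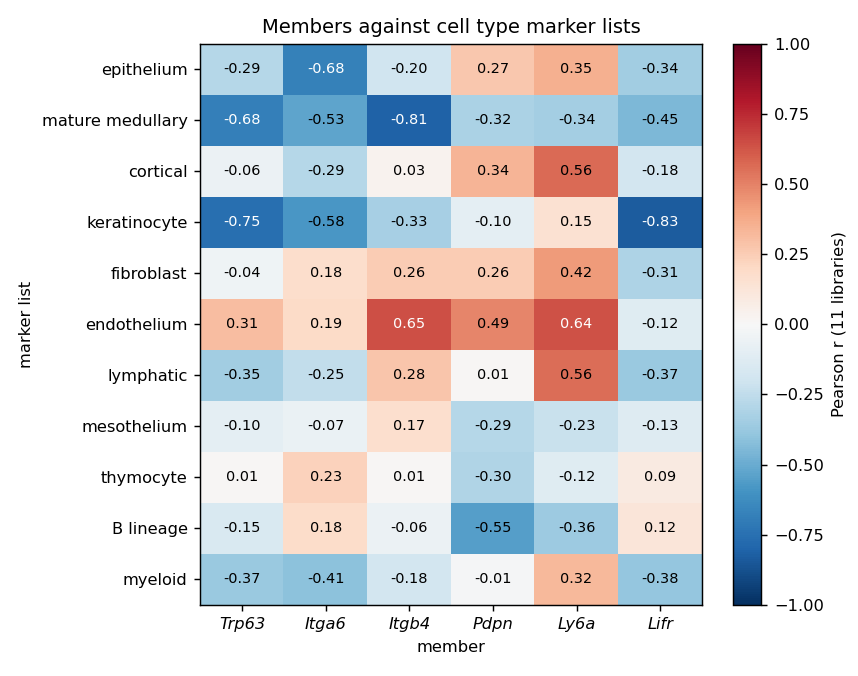
Pearson's r over the 11 libraries between each gene (columns) and the mean log2(CPM + 1) of each marker list (rows), on a scale from -1 (blue) to 1 (red). The mature medullary row is negative for all 6 genes, and the darkest cells are Lifr with the keratinocyte list (-0.83) and Itgb4 with the mature medullary list (-0.81).

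Genes that work with the members were examined as 6 lists, of which 55 genes could be tested. By edgeR 0 of 55 passed in each of the 4 comparisons, where 0% of all genes passed. DESeq2 and limma voom also passed 0 of 55, beside their counts over all genes given above. At an unadjusted p under 0.05 edgeR listed 1, 0, 0 and 5 of them in the order above, where 3.21%, 3.48%, 1.08% and 3.58% of all genes lay. The hemidesmosome and laminin list (9 genes, among them Col17a1, Dst, Plec, Cd151, Lama3, Lamb3, Itga3 and Itgb1) holds the partners of the integrin chains. In WT/R249C against WT/WT 5 of 9 were positive with a median of 0.05, beside 51.5% and 0.02 over all genes. In R249C/R249C against WT/WT 2 of 9 were positive with a median of -0.16, beside 49.0% positive and a median of -0.02 over all genes. Col17a1, the transmembrane hemidesmosome collagen, stood at -0.41 there (interval -1.42 to 0.60). In batch B against batch A 0 of 9 were positive, with a median of -0.43, beside the members' -0.35 and -0.01 over all genes. Itgb1, the common beta 1 chain, had the smallest p there, at 241 ± 51.7 CPM in batch B and 325 ± 76.3 CPM in batch A (log2 fold change -0.56, interval -1.11 to -0.0037, edgeR adjusted p = 1). It was also the 1 gene of the list whose R249C/R249C libraries, at 283 to 289 CPM, lay wholly below the WT/R249C libraries of batch A, at 303 to 496 CPM (edgeR adjusted p = 1); 8.85% of all genes tested did not overlap in that comparison.

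The basal epithelium list (11 genes, among them Krt5, Krt14, Krt15, Krt17, Perp, Fermt1, Jag2, Fat2, Sfn and Trp73) joins basal keratins with genes regulated by p63 or related to it. It was positive for 8 of 11 in both mutant genotypes against WT/WT, with medians of 0.38 for R249C/R249C and 0.27 for WT/R249C. Trp63 stood at -0.02 in both, and the comparisons share the WT/WT libraries. Over all genes 49.0% and 51.5% were positive, with medians of -0.02 and 0.02. In R249C/R249C the general epithelial, mature medullary and cortical (8 genes) lists were positive for 4 of 4, 7 of 8 and 7 of 8. In WT/R249C they were positive for 4 of 4, 6 of 8 and 7 of 8. The keratinocyte list was positive for 3 of 7 and 4 of 7. Krt5, a basal and medullary keratin, stood at 0.09 (-0.87 to 1.04) in R249C/R249C. Perp, a p63 target of desmosomes, measured 373 ± 133 CPM in R249C/R249C (n = 3) and 235 ± 14.7 CPM in WT/WT (n = 3), and the lowest R249C/R249C library, at 251.7 CPM, barely cleared the highest WT/WT library, at 251.5 (log2 fold change 0.79, interval -0.37 to 1.95, edgeR adjusted p = 1). These groups did not overlap for 1 of 11 genes of the list and for 8.1% of all genes tested. In batch B against batch A 7 of 11 were positive, with a median of 0.11, while the members' median was -0.35. Over all genes 49.2% were positive there, with a median of -0.01. Unlike most of the list, Trp73, the p63 relative p73, stood at -0.90 in batch B against batch A (interval -1.68 to -0.11, edgeR adjusted p = 1) and the Notch ligand Jag2 at -0.55 (-1.07 to -0.03, edgeR adjusted p = 1).

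The progenitor and junctional list (13 genes, among them Ccl21a, Cldn3, Cldn4, Plet1, Foxn1, Pax1, Pax9, Six4, Eya1, Hoxa3, Tbx1 and Isl1) holds other markers of these cells and the factors that pattern the thymus. In R249C/R249C against WT/WT 9 of 13 were positive, with a median of 0.24, beside 49.0% positive and a median of -0.02 over all genes. Foxn1 had the smallest p, at 153 ± 20.2 CPM in R249C/R249C and 136 ± 68.7 CPM in WT/WT (batch-adjusted log2 fold change 0.81, interval 0.03 to 1.58, edgeR adjusted p = 1). Its WT/WT libraries stood at 58.1, 160.2 and 189 CPM, on both sides of R249C/R249C. Ccl21a, the chemokine of junctional and immature medullary cells, stood at 0.42 (-0.84 to 1.69) in R249C/R249C and 0.30 (-0.71 to 1.30) in WT/R249C. Cldn3, a tight junction protein of medullary precursors, stood at 1.62 in R249C/R249C with an interval of -1.52 to 4.77. Between batches the list did not follow the members. In batch B against batch A 8 of 13 were positive, with a median of 0.29, while the members' median was -0.35. Over all genes 49.2% were positive there, with a median of -0.01.

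For Lifr, the list of co-receptors, ligands and signal carriers held Il6st, Osmr, Lif, Osm, Ctf1, Clcf1, Cntfr, Jak1, Jak2, Tyk2, Stat3 and Socs3, of which 11 passed the filter on low counts. Osm did not, being at 0 in 9 of 11 libraries. Il6st, which encodes the shared subunit gp130, measured 415 ± 42.1 CPM in R249C/R249C (n = 3), 377 ± 149 in WT/R249C (n = 5) and 301 ± 54.3 in WT/WT (n = 3). R249C/R249C and WT/WT did not overlap for it, as for 1 of 11 genes of the list and 8.1% of all genes tested. Its batch-adjusted log2 fold change was 0.24 (interval -0.54 to 1.02, edgeR adjusted p = 1). Osmr, the alternative partner of gp130, stood at 0.47 (-0.44 to 1.37) in R249C/R249C and 0.56 (-0.18 to 1.30) in WT/R249C. Among the ligands Lif lay between 0 and 4.16 CPM and Ctf1, cardiotrophin 1, between 43.9 and 89.3 CPM. Socs3, the feedback inhibitor of this signal, stood at -0.36 (-1.13 to 0.42) in R249C/R249C and -0.55 (-1.15 to 0.05) in batch B against batch A.

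The binding partners of podoplanin (Ezr, Msn, Cd44 and Cd9) had log2 fold changes between -0.36 and 0.21 in R249C/R249C against WT/WT, with a median of 0.11. Ezr, the membrane linker ezrin, stood at 0.06 there (-0.49 to 0.60). The other Ly6 genes (Ly6c1, Ly6c2, Ly6d, Ly6e, Ly6g, Ly6i and Ly6k) had a median of 0.80 in R249C/R249C against WT/WT, where Ly6a stood at -0.19, but Ly6g and Ly6i never exceeded 6.92 and 3.65 CPM. Ly6c1 measured 26.2 ± 17.9 CPM in R249C/R249C and 16.0 ± 11.2 in WT/WT (0.96, interval -1.18 to 3.09). Ly6d, a keratinocyte and lymphoid surface protein, was at 72.3 ± 13.8 CPM in batch B and 46.6 ± 15.8 CPM in batch A (0.81, interval 0.13 to 1.50, edgeR adjusted p = 1). Genes of this family, Ly6a included, are similar in sequence, and how the authors counted reads shared between them is not known here.

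**Figure D5:**
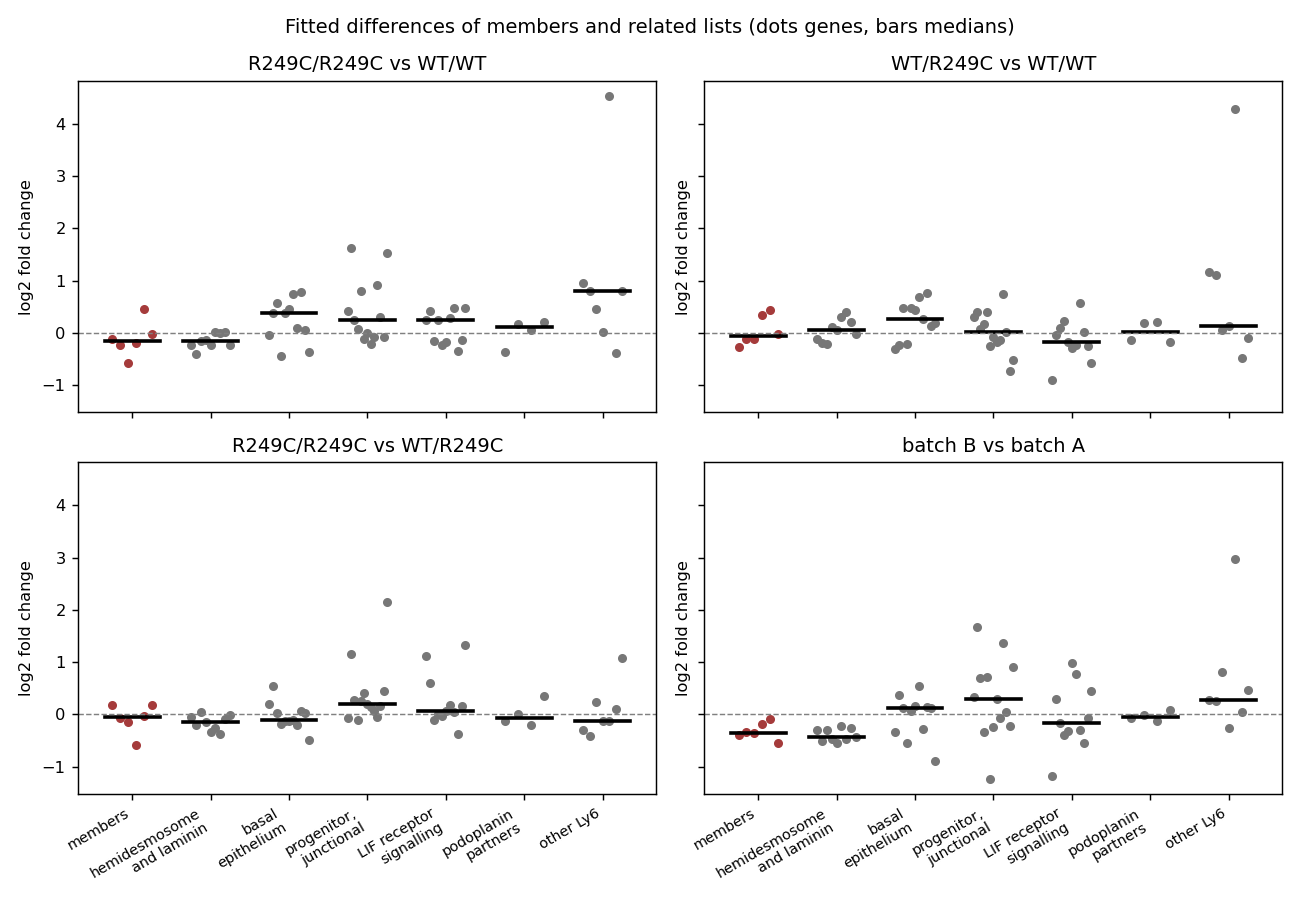
Fitted log2 fold change (y axis, the same in all panels) of the 6 members (red) and of the genes of 6 related lists (grey) in the 4 comparisons. Dots are genes and bars medians. The members and the hemidesmosome and laminin list lie wholly below 0 in batch B against batch A; the points above 4 in the other Ly6 list are Ly6g, which is close to 0 CPM.

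The genes whose levels followed each member most closely were sought among 10369 named genes with a mean of at least 10 CPM, as Pearson's r of log2(CPM + 1) over the 11 libraries; they were picked for it and carry no test. For Trp63 they were Slc6a6, the taurine transporter (0.95, and 0.90 within batch A), Twsg1, a modulator of BMP signals (0.94), and Itm2c (0.94). All 3 were highest in WT/WT replicate 1, as Trp63 was. For Itga6 they were Srpx (0.92), Snx33 (0.92) and Stx17 (0.90). Srpx fell to 0.61 within batch A. For Itgb4 they were the kinase Map3k20 (0.92), the macrophage growth factor Csf1 (0.91) and the metalloproteinase Adam15 (0.91), all highest in WT/R249C replicate 2. Rnase4 (0.92), Use1 (0.87) and Sult5a1 (0.86) followed Pdpn. Ly6a was followed by Hcfc1r1 (0.96) and by Ifitm2, a member of the interferon-induced transmembrane family (0.93), both highest in WT/R249C replicate 2 and lowest in WT/R249C replicate 3. Lifr was followed by Dhrs3, a retinaldehyde reductase (0.97), by the forkhead factor Foxn3 (0.95) and by the Notch co-activator Maml2 (0.95). Dhrs3 ran from 201 CPM in WT/R249C replicate 1 to 1061 CPM in WT/WT replicate 1, the libraries that were also lowest and highest for Lifr. None of the genes named for their likeness was another member or on a list used here.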

How the data were processed

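The authors deposited whole-number counts for each gene in 11 libraries, without normalization. The tools named are FastQC, HISAT2 and StringTie, with mouse build mm39, per the submitters' processing notes; versions, the annotation release and whether counts are tallied reads are not given in the sources used here. Per the file headers, batch A columns carry the word trimmed and batch B columns do not. Symbols came from an older GENCODE release (52073 of 56691 genes; all 130 listed genes). Coordinates and sequences were not used here.

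CPM are counts over library totals. Tests used the quasi-likelihood test of edgeR 4.0.16 (R 4.3.3, TMM, filterByExpr, robust fit), two-sided, with Benjamini-Hochberg adjustment over all genes tested; the threshold was 0.05. WT/WT comparisons and the batch comparison came from 1 fit of 11 libraries with genotype and batch; R249C/R249C against WT/R249C used the 6 batch A mutant libraries. Permutation tests drew 100000 resamples. The fit was tested on simulated data. Alternatives were DESeq2 1.42.0, limma 3.58.1 (voom), RLE factors, no filter, no batch term, single batches, the contradicting labels left out or recounted, a replicate block, each library left out, and for correlations TMM-scaled CPM and a pseudocount of 0.1. Intervals are at 95% and reflect the spread between libraries. No 2 libraries agreed within sampling noise.

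From each list the text names its first gene and up to 3 genes of smallest unadjusted p per comparison; Ly6g, Ly6i, Osm, Lif and Ctf1 were named after their values were seen. The members and lists were chosen with earlier results of these data known. Some genes of the lists and of the likeness search are not reported here.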

Additional observations from a re-analysis of the deposited data

How the results depend on the processing

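Over 71 alternatives the members gave 426 fold changes, of which 377 kept their direction, 49 reversed and 0 passed the threshold. DESeq2 moved the counts of genes called from 0 to 408 (R249C/R249C against WT/WT), 276 (WT/R249C against WT/WT), 33 (R249C/R249C against WT/R249C) and 183 (batch B against batch A); the cause was not tested. In R249C/R249C against WT/WT, Trp63 turned to 0.014 without the filter, 0.077 with limma voom, 0.26 without a batch term and 0.066 with the contradicting libraries counted as R249C/R249C. Lifr turned to 0.066 with limma voom, Itga6 to 0.12 without a batch term, and Ly6a to 0.037 within batch A and to 0.035 and 0.084 with the contradicting libraries left out and recounted. In WT/R249C against WT/WT, limma voom gave 0.12 for Trp63 and 0.26 for Lifr, no batch term 0.024 for Trp63, and batch B alone 0.48 for Trp63, 0.0090 for Itgb4 and 0.76 for Lifr. In R249C/R249C against WT/R249C, Pdpn turned to 0.017 with RLE factors and with DESeq2, and Lifr to 0.13 with limma voom. In batch B against batch A, Lifr turned to 0.11 with limma voom, Pdpn to 0.12 without the contradicting libraries, and Ly6a to 0.15 without them and 0.20 with them recounted. The cause of these turns was not tested. With TMM-scaled CPM the pairs past the threshold went from 0 to 1 and Pdpn with Lifr from -0.04 to 0.0030.

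Leaving out 1 library at a time, R249C/R249C against WT/WT ran from -0.14 to 0.72 for Trp63, -0.27 to 0.060 for Itga6, -0.45 to 0.075 for Ly6a and -0.84 to 0.67 for Lifr. WT/R249C against WT/WT ran from -0.21 to 0.49 for Trp63, -0.29 to 0.012 for Itgb4 and -0.54 to 0.76 for Lifr. R249C/R249C against WT/R249C ran from -0.29 to 0.30 for Itgb4, -0.33 to 0.28 for Pdpn and -0.43 to 0.074 for Lifr. Batch B against batch A ran from -0.27 to 0.11 for Pdpn, -0.44 to 0.15 for Ly6a and -0.88 to 0.36 for Lifr.

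The deviations of same-numbered replicates correlated between -0.16 and 0.22. In the 3 genotype comparisons 1, 0 and 2 of 3 libraries correlated best with their own number. Only R249C/R249C against WT/R249C held all same-numbered libraries within 1 batch, so whether replicates were paired was not settled. The replicate block called 0 genes in all 4 comparisons. Under it Ly6a turned to 0.13 in R249C/R249C against WT/WT and to 0.048 between batches.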
